A study of Macaca mulatta with 24 samples.

Results

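The 6 alcohol-free controls of cohorts 5 and 7b are compared here, 3 animals against 3, out of 24 rhesus macaques whose nucleus accumbens core (NAcc core) was profiled by RNA-Seq. They are the animals labelled Control in the only cohorts that have 3 of them. The remaining animals are 2 controls of cohort 7a, 8 LD* (low drinkers, 2 of cohort 4, 3 of cohort 7a and 3 of cohort 7b) and 8 HD* (HD and VHD drinkers, 4 each in cohorts 5 and 7a). All were unrelated adult males, and each gave 1 library from 1 small dissection of the core.

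Controls lived in the room of their cohort's drinkers and went through the same induction and year-long self-administration sessions. Their spouts dispensed only water, and a maltose dextrin solution matched their calories to those of the drinkers. A difference between the control cohorts therefore measures how far samples of animals that never drank ethanol differ by cohort and by sample. No animal gave a repeat dissection or library, so individual, dissection and library cannot be told apart. Controls shared a room with the drinkers of their cohort, so cohort and room cannot be told apart here. Values are TPM, a length-corrected share of each library scaled to a fixed total. The paper gives an average read number over the samples. The depth of each single library is not known here, so no counting error can be given.

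The NAcc core is a part of the ventral striatum that takes dopamine input from the midbrain and excitatory input from cortex, amygdala and hippocampus. Most of its neurons are medium spiny neurons, which release GABA and fall into a direct class, with dopamine D1 receptors, dynorphin and substance P, and an indirect class, with D2 receptors, adenosine receptors and enkephalin. Interneurons that make acetylcholine, somatostatin with neuropeptide Y, or tachykinin 3 are fewer, and oligodendrocytes, astrocytes and microglia make up the rest of the tissue together with vessels.

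Spiny neuron transcripts were present in all 6 animals, but 1 animal stood apart. PPP1R1B, the dopamine signalling protein DARPP-32 of spiny neurons, was at 3749, 1578 and 3926 TPM in the cohort 5 controls and at 2954, 1371 and 304 TPM in the cohort 7b controls. PENK, the enkephalin precursor, was at 3480, 2225 and 4718 TPM against 3577, 1773 and 265 TPM. Both transcripts were found in every animal, and in cohort 7b control 3 each was at its lowest among all 24 animals. The 11 spiny neuron markers found summed to 7493, 2821 and 7616 TPM in cohort 5 and to 5351, 2574 and 570 TPM in cohort 7b. The other 23 animals lay between 1948 and 7616 TPM, so cohort 7b control 3 held 0.107 of their median of 5351 TPM.

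Glial transcripts ran the other way in that animal. Its 20 oligodendrocyte and myelin markers summed to 13206 TPM, where the other 23 animals lay between 2319 and 8485 TPM. Its 15 astrocyte markers, at 22382 TPM, were also above the range of the others, 7855 to 21199 TPM. The sum of its general neuronal markers, 6172 TPM, lay inside the range of the others, 3601 to 8150 TPM. The mean of their log2 values was the highest of the 8 controls, though some drinkers were higher. The vascular sum, at 311 TPM among 198 to 359 TPM, did not set it apart. Fewer cells of a type and less RNA per cell cannot be told apart in bulk tissue.

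Cohort 5 control 2 also differed from its cohort. SLC17A7, the vesicular glutamate transporter of cortical projection neurons, was at 348 TPM in it and at 1.19 and 2.68 TPM in the other controls of cohort 5, while the cohort 7b controls were at 1.24, 0.897 and 0.968 TPM. High SLC17A7 was not particular to this animal. The cohort 7a controls were at 119 and 30.5 TPM, and the drinkers ranged from 0.866 to 722 TPM. The spiny neuron sum of cohort 5 control 2 was below those of both cohort mates. Its GFAP, the astrocyte filament protein, was at 3369 TPM beside 829.5 and 687 TPM. List medians and many genes below are therefore also given without cohort 7b control 3, and a few results without cohort 5 control 2.

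**Figure D1:**
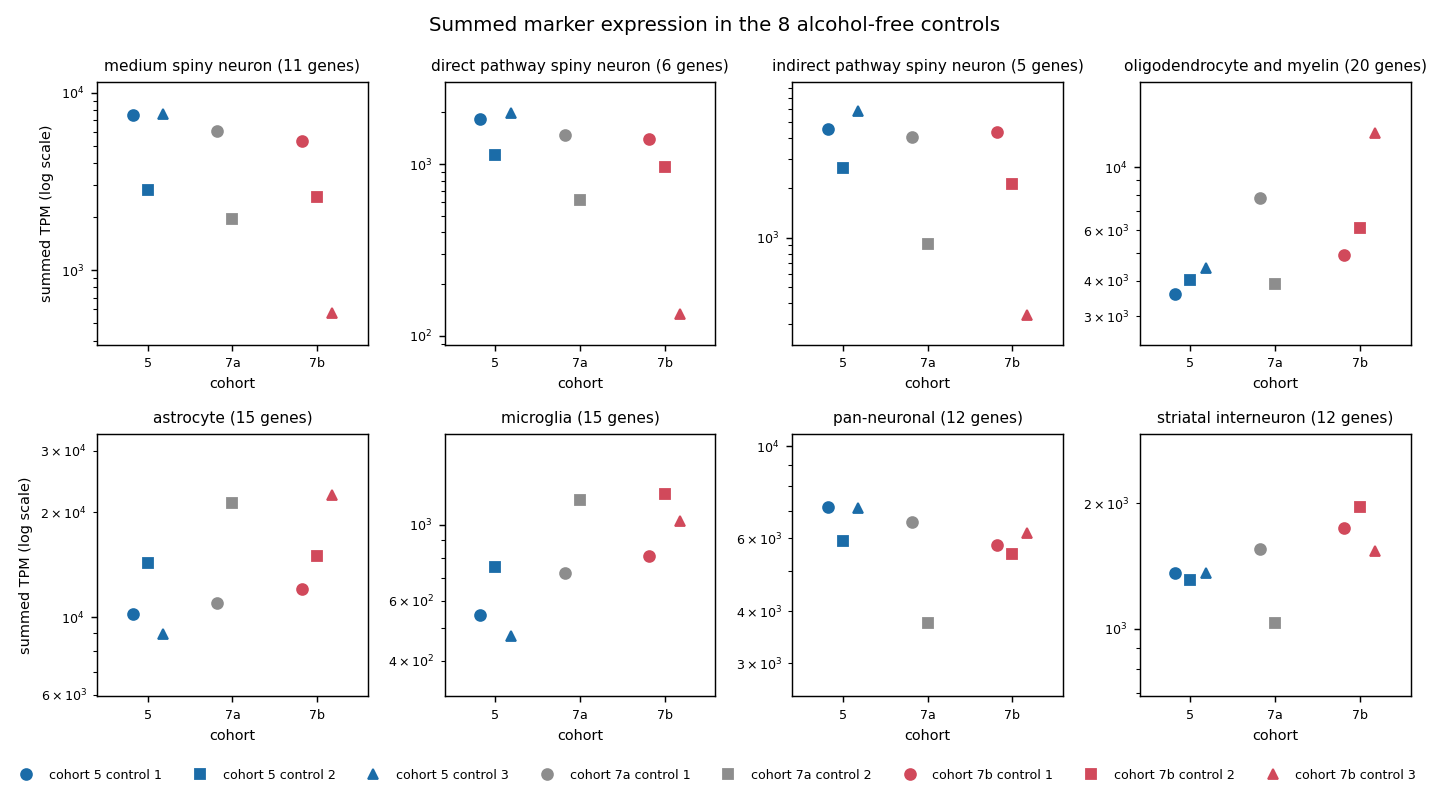
Summed TPM (log scale) of 8 cell type marker lists in each of the 8 controls, by cohort, with 1 point per animal. Cohort 7b control 3 lies lowest for the 3 spiny neuron lists (570 TPM for the medium spiny neuron list) and highest for the oligodendrocyte and myelin list (13206 TPM) and the astrocyte list, while its pan-neuronal sum lies among those of the others.

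The cohorts overlapped on the main axis of variation. Tests used 9197 of 17208 listed symbols, those whose average over 24 animals reached 10 TPM. In them the first principal component of the 6 controls held 71.5% of the variance. Scores on it were -31.0, -1.64 and -28.2 for cohort 5 and -9.83, 9.75 and 60.9 for cohort 7b. Cohort 7b control 1 thus lay nearer to cohort 5 than to its cohort mate control 3. Across genes, which are not independent replicates, log2 values correlated at 0.946 to 0.990 inside cohort 5, at 0.883 to 0.974 inside cohort 7b and at 0.821 to 0.977 between cohorts.

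**Figure D2:**
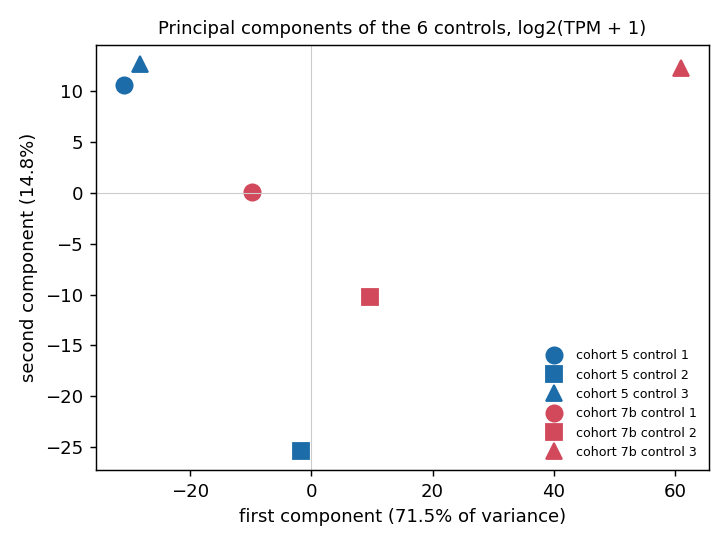
First and second principal components of log2(TPM + 1) in the 6 controls, with 71.5% and 14.8% of the variance. Cohort 7b control 3 stands alone at 60.9 on the first axis, cohort 5 control 2 lies lowest on the second axis, and no line along the first axis parts the cohorts.

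Cohort membership took 34.5% of the total variance of the 6 animals. Of the 20 ways to split them 3 and 3, an exact permutation test gave a two-sided p of 0.2, where the smallest that such a design can reach is 0.1. With the 2 controls of cohort 7a added, 3 cohorts took 31.9% (exact permutation test over 560 assignments, p = 0.332). Leaving out cohort 7b control 3 gave 28.4%, and leaving out cohort 5 control 2 as well gave 63.0%, in both cases with too few animals for a useful test. Leaving out both was chosen after seeing the data. A share of this kind is also larger by chance alone when fewer animals remain, so 63.0% cannot be read as a cohort effect.

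No gene differed between the control cohorts at an adjusted p under 0.05 (limma, Benjamini-Hochberg over 9197 genes, 0% called), and the smallest adjusted p was 0.438. The unadjusted p was under 0.05 for 948 genes, 10.3% of those tested, of which 439 (4.77%) were higher and 509 (5.53%) lower in cohort 7b. The cohorts did not overlap for 746 genes that were higher in cohort 7b (8.11%) and for 896 that were lower (9.74%). The median log2 fold change, cohort 7b minus cohort 5, was -0.03 and the median absolute value was 0.22. The 95% interval of a gene's log2 fold change had a median reach of 0.44 to either side, so most differences of the size seen here could not have been detected with 3 animals a side. Without cohort 7b control 3, 86.6% of genes kept their sign and 553 had an unadjusted p under 0.05, of which 484 were among the 948 with the same direction.

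The genes described next had the smallest p in each direction, 12 higher and 12 lower, and in all 24 the 3 animals of 1 cohort lay apart from the 3 of the other. They are descriptions of the far ends of the ranking, since each has an adjusted p of 0.438 (limma). Cell type sums moved with the cohorts too, with spiny neuron markers as given above. Microglial markers summed to 473 to 751 TPM in cohort 5 and to 809 to 1232 TPM in cohort 7b. The microglial list includes CD74, itself one of these 24 genes, so its sum is not independent of them. What part cell type sums have in these genes was not tested.

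TAC3, which encodes neurokinin B and in the primate striatum marks a class of interneurons, had the smallest p of all. It was at 51.8, 39.4 and 47.5 TPM in cohort 5 and at 114, 229 and 159 TPM in cohort 7b, a log2 fold change of 1.78 ± 0.26 (SE, n = 3 per cohort). The lowest animal of cohort 7b was above the highest of cohort 5 by a wide margin, and leaving out cohort 7b control 3 gave 1.79. ARHGAP36, an inhibitor of protein kinase A signalling, had the widest difference of any tested gene. Its TPM were 1.18, 5.39 and 1.51 against 15.1, 48.9 and 80.8, a log2 fold change of 3.62 ± 0.67, or 3.11 without cohort 7b control 3. Every cohort 7b control exceeded every cohort 5 control for ARHGAP36, although the animals of cohort 7b themselves ranged from 15.1 to 80.8 TPM.

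CD74, S100A11 and MT1E were also among the 12 genes that were higher in cohort 7b. CD74, the invariant chain of MHC class II, was at 101, 115 and 72.9 TPM in cohort 5 and at 212, 192 and 255 TPM in cohort 7b (log2 fold change 1.19 ± 0.21). S100A11, a calcium-binding protein, was at 46.6, 51.5 and 44.0 TPM against 89.7, 72.5 and 84.5 TPM (0.78 ± 0.14). MT1E, a metal-binding metallothionein, was at 278, 372 and 290 TPM against 632, 502 and 664 TPM (0.93 ± 0.18). These 3 genes had narrow ranges inside each cohort, and leaving out cohort 7b control 3 left values of 1.08 for CD74, 0.76 for S100A11 and 0.86 for MT1E.

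The other 7 genes that were higher in cohort 7b lay between a log2 fold change of 0.57 and 0.93. FRZB, a secreted antagonist of Wnt signals, had narrow ranges inside cohorts, at 47.2, 41.1 and 43.4 TPM against 65.9, 63.1 and 67.8 TPM. HEYL, a transcription factor downstream of Notch, was at 24.4, 20.02 and 28.2 TPM against 38.9, 41.0 and 49.3 TPM. FUK, the kinase that salvages fucose, was at 11.0, 15.6 and 11.5 TPM against 24.4, 23.2 and 23.3 TPM. The remaining members were ARSG, a lysosomal sulfatase, PBXIP1, the Golgi protein YIPF1 and VMO1, with log2 fold changes of 0.68, 0.79, 0.71 and 0.93.

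Several of the lower genes have known roles in neurons. PCDH17, a protocadherin of synaptic contacts, was at 62.9, 43.2 and 60.5 TPM in cohort 5 and at 20.7, 26.1 and 23.0 TPM in cohort 7b (log2 fold change -1.21 ± 0.18, and -1.20 without cohort 7b control 3). GLRA2, a glycine receptor subunit, was at 47.4, 54.7 and 61.0 TPM against 28.8, 29.3 and 18.6 TPM (-1.08 ± 0.21). RIMBP2, a protein of the presynaptic active zone, was at 38.6, 40.5 and 39.0 TPM against 24.7, 25.3 and 19.6 TPM (-0.75 ± 0.14). SYT4, a synaptotagmin of secretory vesicles, was at 179, 148 and 186 TPM against 98.0, 113 and 91.1 TPM (-0.76 ± 0.15). For these 4 genes cohort 7b control 3 was not the only low animal, since its cohort mates were also below all of cohort 5.

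THRB, the thyroid hormone receptor beta, and SEMA3E, a secreted guidance cue, differed most among the 12 lower genes. THRB was at 34.9, 35.7 and 32.7 TPM against 17.1, 10.2 and 5.86 TPM (-1.66 ± 0.33), and SEMA3E at 41.9, 20.6 and 34.2 TPM against 13.3, 8.82 and 6.28 TPM (-1.66 ± 0.34). In both, cohort 7b control 3 was the lowest of the controls, and without it the values were -1.31 and -1.43. HMGCS1, an early enzyme of cholesterol synthesis, was at 104, 74.2 and 87.3 TPM against 53.2, 49.3 and 47.4 TPM (-0.80 ± 0.16). The potassium channel subunit KCNG1 (-1.13), the nuclear protein AFF3 (-1.08), WFIKKN1 (-0.995), CMBL (-0.86) and PPP2R1B, a scaffold subunit of protein phosphatase 2A (-0.80), completed the 12.

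**Figure D3:**
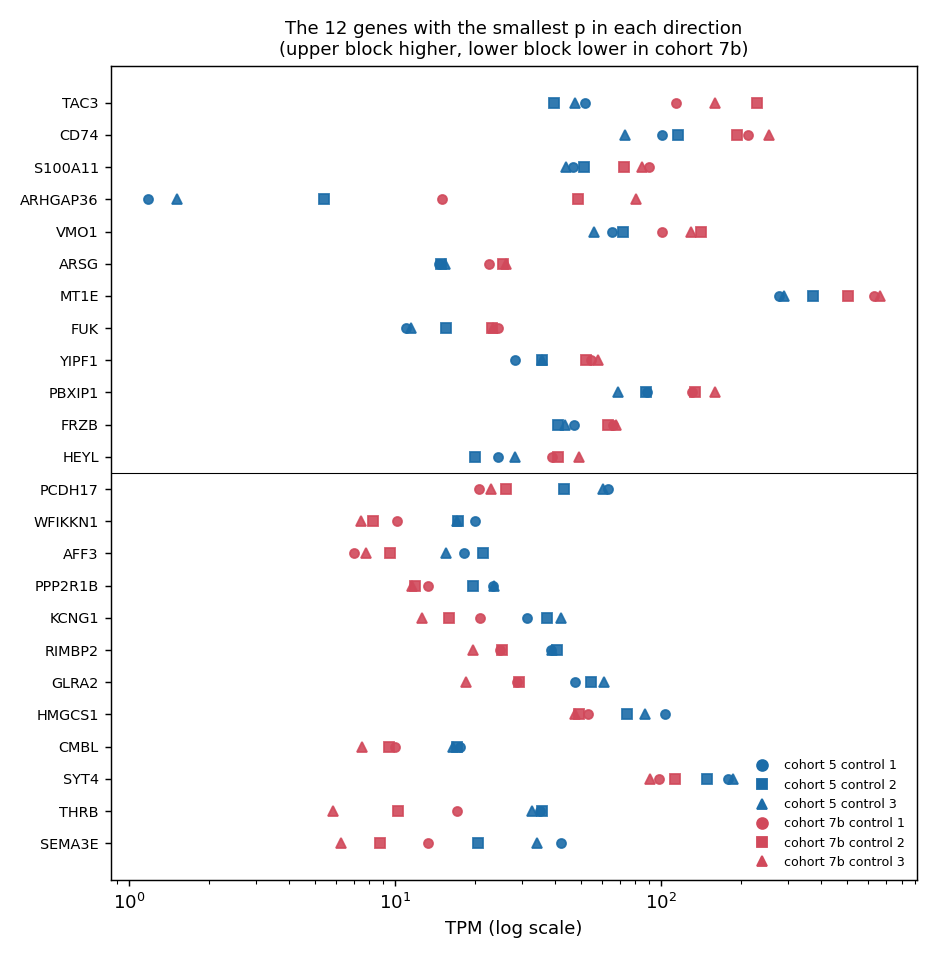
TPM (log scale) of the 24 genes with the smallest p between the control cohorts, with 1 point per animal, cohort 5 in blue and cohort 7b in red. In each row the 3 animals of one cohort lie apart from those of the other, from TAC3 (39.4 to 51.8 TPM against 114 to 229 TPM) to SEMA3E (20.6 to 41.9 TPM against 6.28 to 13.3 TPM), and none passes an adjusted p of 0.05.

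The 2 controls of cohort 7a, which did not enter the fit, differed from each other. For the same 24 genes, control 1 of cohort 7a was nearer to the mean of cohort 5 in 23 and control 2 nearer to the mean of cohort 7b in 18. PCDH17 was at 66.1 TPM in the first and 17.5 TPM in the second, THRB at 28.4 and 6.91 TPM, and CD74 at 84.2 and 236 TPM. Control 2 was nearer to cohort 7b in 7 of the 12 higher and in 11 of the 12 lower ones. TAC3 was at 48.8 and 85.3 TPM in the 2 animals, and ARSG, at 16.0 and 14.8 TPM, FUK, at 10.9 and 9.32 TPM, and HEYL, at 18.9 and 14.3 TPM, lay near cohort 5 or below it in both. Of the 948 genes counted above by unadjusted p, 17.3% were nearer to cohort 7b in cohort 7a control 1 and 80.4% in cohort 7a control 2, where over all tested genes the shares were 31.5% and 66.2%. The spiny neuron sums of these 2 animals were 6088 and 1948 TPM and their microglial sums 721 and 1183 TPM, and the part of these was not tested.

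Among the largest differences, several rested on single animals. At a log2 fold change of at least 1, 74 genes (0.805%) were higher and 273 (2.97%) lower in cohort 7b. NGFR, the low-affinity neurotrophin receptor p75, was at 0.0543, 0.41 and 0.233 TPM in cohort 5 and at 0.22, 8.91 and 185 TPM in cohort 7b, so that its log2 fold change of 3.42 ± 1.64 became 1.51 without cohort 7b control 3. PNMA5, of the paraneoplastic antigen family, was at 1.49, 14.7 and 1.05 TPM against 9.53, 42.5 and 28.9 TPM (2.47 ± 0.87), and cohort 5 control 2 overlapped cohort 7b. SLC17A7 had a value of -2.80 ± 1.79 that came from cohort 5 control 2 alone, as its TPM above show. CST6, a cysteine protease inhibitor, was at 256, 88.4 and 256 TPM against 99.2, 1.92 and 32.8 TPM (-3.07 ± 1.22). The gene listed as CD3D, by that name a chain of the T cell receptor complex, was at 49.6, 17.2 and 30.9 TPM against 9.03, 3.62 and 1.35 TPM (-2.69 ± 0.58), the only one of the 3 lower genes whose cohorts did not overlap. Whether reads of another gene enter the CD3D value was not tested.

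Gene lists for cell types and pathways are described by their counts and medians, beside the whole tested set, in which 46.3% of genes were above 0 and the median was -0.03. Over that set 4.77% of genes were higher and 5.53% lower at an unadjusted p under 0.05, and 8.11% and 9.74% were higher and lower without overlap. No member of any list passed an adjusted p of 0.05 (limma), and every count of members below refers to an unadjusted p under 0.05. Where a list had 5 or fewer such members they are named, and those were chosen after their values were seen.

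Spiny neuron genes were low in cohort 7b on average, without a gene that separated the cohorts. All 11 general markers were below 0 with a median of -1.48, as were 4 of 4 direct pathway genes (-1.54) and 5 of 5 indirect pathway genes (-1.48), and 0 of these 20 had an unadjusted p under 0.05 or cohorts that did not overlap. PDYN, the dynorphin precursor of the direct class, was at 737, 496 and 858 TPM against 533, 357 and 35.0 TPM. TAC1, the substance P precursor, was at 682, 482 and 782 TPM against 628, 436 and 70.4 TPM. ADORA2A, an adenosine receptor of the indirect class, was at 458, 158 and 481 TPM against 371, 154 and 12.5 TPM. In each of these the first 2 controls of cohort 7b lay within or below the range of cohort 5 and control 3 lay far under all. Without it the 3 medians were -0.51, -0.52 and -0.45. With the myelin marker score of each animal in the model they turned to 0.22, 0.46 and 0.39, a score that itself moves with cohort.

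Interneuron genes did not follow them. Of 7 tested interneuron genes 5 were above 0, with a median of 0.51, and TAC3 alone had an unadjusted p under 0.05. The median was 0.27 without cohort 7b control 3, with 6 of 7 above 0. SST, somatostatin, was at 632, 620 and 659 TPM in cohort 5 and at 810, 960 and 699 TPM in cohort 7b (0.36 ± 0.16), with no overlap. NPY, its partner peptide, was at 575, 541 and 554 TPM against 744, 616 and 195 TPM (-0.32 ± 0.48), and its value turned to 0.28 without cohort 7b control 3. General neuronal genes were divided, 6 of 12 above 0 with a median of 0.05, but this rested on cohort 7b control 3, without which 2 of 12 were above 0 and the median was -0.17. At an unadjusted p under 0.05 were the synaptic vesicle fusion proteins SNAP25, at 1990, 1413 and 1914 TPM against 1345, 1060 and 934 TPM (-0.67 ± 0.21), and SYT1 (-0.50 ± 0.13).

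Oligodendrocyte and myelin genes were all above 0, 20 of 20, with a median of 0.92, 8 members at an unadjusted p under 0.05 and 10 without overlap. MBP, myelin basic protein, was at 288, 485 and 358 TPM against 502, 769 and 1497 TPM (1.17 ± 0.41, and 0.75 without cohort 7b control 3). Cohort 7b control 3 was the highest of the controls for MBP, although a drinker of cohort 7b reached 1801 TPM. Its fellow controls of cohort 7b also lay above cohort 5. Without cohort 7b control 3 all 20 stayed above 0 with a median of 0.42. The 6 tested genes of oligodendrocyte precursors were above 0 too (median 0.45), among them OLIG1 (0.83) and BCAS1 (1.06) at an unadjusted p under 0.05. Without cohort 7b control 3 these values were 0.23 for the list, 0.50 for OLIG1 and 0.59 for BCAS1. The dissection was meant to leave out the white matter tract above the core. How much of the tract each sample holds was not tested.

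Astrocyte and microglial genes were higher by medians of 0.59 (13 of 15 above 0, 6 at an unadjusted p under 0.05) and 0.72 (11 of 11 above 0, 6). GFAP itself did not part the cohorts, at 829.5, 3369 and 687 TPM against 887, 2655 and 6255 TPM (0.98 ± 0.84, and 0.30 without cohort 7b control 3). CLU, a secreted chaperone of astrocytes, was at 2235, 2372 and 1888 TPM against 2406, 2533 and 3539 TPM (0.37 ± 0.21). The cohorts did not overlap for CLU, but the gap was narrow, and its value was 0.20 without cohort 7b control 3. C1QB, a complement component made by microglia, was at 74.4, 130 and 79.7 TPM against 146, 244 and 161 TPM (0.96 ± 0.28). Its 3 cohort 7b values were above all of cohort 5, and the difference was 1.03 without cohort 7b control 3. Without that animal the medians were 0.37 for astrocyte and 0.53 for microglial genes. PTPRC, the leukocyte antigen CD45, stayed under the minimum of 10 TPM, at 1.90 TPM or less in all 6 animals.

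Genes induced by interferon were all above 0, 8 of 8, with a median of 0.58, or 0.42 without cohort 7b control 3. The 4 at an unadjusted p under 0.05 were IFI27 (0.67), MX1 (1.08), IFIT3 (0.59) and BST2 (0.56), of which MX1, an antiviral GTPase, was at 14.8, 18.4 and 9.76 TPM against 19.4, 26.3 and 55.1 TPM and had a value of 0.66 without that animal. IFI6, the most abundant of the list, was at 332, 416 and 346 TPM against 397, 426 and 472 TPM and its cohorts overlapped. Antigen presentation genes were above 0 in 6 of 7 (median 0.44, and 0.45 without cohort 7b control 3), CD74 alone with an unadjusted p under 0.05. Microglial sums, which count CD74 as well, moved with these lists, as given above, and their part was not tested.

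Immediate early genes, which neurons switch on within minutes of activity, were below 0 in 13 of 14, with a median of -0.77. EGR1, a zinc finger factor of this class, was at 89.4, 40.8 and 114 TPM against 62.8, 25.4 and 17.5 TPM (-1.27 ± 0.54), and its cohorts overlapped because cohort 5 control 2 lay below cohort 7b control 1. The 3 lower members at an unadjusted p under 0.05 were FOSL2 (-1.39), NR4A1 (-0.91) and ARC (-0.63), and BTG2 (0.70) was the 1 that was higher. NR4A1, an orphan nuclear receptor, was at 33.0, 26.2 and 40.2 TPM against 23.3, 15.6 and 13.4 TPM. Without cohort 7b control 3 the median of the list was -0.53. Spiny neuron sums moved with cohort too, as given above, and their part in this list was not tested.

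Cholesterol synthesis genes were below 0 in 12 of 14, with a median of -0.37, 6 members at an unadjusted p under 0.05 and 7 without overlap. Besides HMGCS1 the 2 most abundant members, the regulator SREBF2 (-0.44 ± 0.22) and the enzyme FDPS (-0.13 ± 0.16), had smaller differences. The median was -0.33 without cohort 7b control 3 and -0.34 with the myelin marker score in the model. Summed over the list, the cohort 5 controls were at 1609, 1236 and 1467 TPM and the cohort 7b controls at 1177, 1030 and 1067 TPM, which did not overlap. The oligodendrocyte sums, from cells that make much of the cholesterol of myelin, were higher in cohort 7b, as given above, and their part was not tested.

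Circadian clock genes were below 0 in 13 of 14 (median -0.48), with ARNTL (-0.55) and BHLHE40 (-0.84) at an unadjusted p under 0.05, and the median was -0.22 without cohort 7b control 3. With the myelin marker score in the model it was 0.03. The hour of tissue collection is not given in the sources used here. Heat shock, glucocorticoid-induced and hypoxia-induced lists had medians of 0.05, 0.16 and 0.16 and members on both sides, and medians of -0.04, 0.02 and 0.16 without cohort 7b control 3. In them BAG3 (0.85), CRYAB (0.86), MT2A (0.80) and NDRG1 (0.98) were higher and HSPH1 (-0.99) lower at an unadjusted p under 0.05, where CRYAB was 0.46 and NDRG1 0.57 without that animal. MT2A, a metallothionein, was at 320, 291 and 292 TPM against 664, 421 and 519 TPM, and like MT1E it had no overlap.

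Cytosolic ribosomal protein genes were above 0 in 75 of 78 but by little, with a median of 0.21 and 0 members at an unadjusted p under 0.05. Animals inside a cohort differed more than that. RPS27, a small subunit protein, was at 3130, 4587 and 2732 TPM against 4117, 4659 and 3543 TPM, and cohort 5 control 2 lay above 2 of the 3 controls of cohort 7b. The median of the list was 0.29 without cohort 7b control 3 and 0.50 without cohort 5 control 2 as well. Oxidative phosphorylation genes had a median of 0.09 (51 of 73 above 0, and 0.10 without cohort 7b control 3), with COX7A1 (0.51) and COX7A2 (0.46) at an unadjusted p under 0.05. The 8 genes used as PCR references had a median of -0.11, or -0.08 without that animal, and none at an unadjusted p under 0.05.

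The synaptic gene lists of the study, selected for being lower in HD* animals than in controls of this series, were also lower in controls of cohort 7b than in controls of cohort 5. All 33 tested genes of the glutamatergic list were below 0, with a median of -0.61, 12 at an unadjusted p under 0.05 and 12 without overlap. All 11 of the GABAergic list were below 0, with a median of -0.80 and 5 at an unadjusted p under 0.05, namely CNR1, ERC2, GLRB, KCND2 and PTPRO. The lists share members and were chosen on these libraries, the 6 controls included, so their direction is not independent evidence. CNR1, the cannabinoid receptor CB1, was at 72.8, 39.2 and 74.6 TPM against 25.8, 19.4 and 24.8 TPM (-1.33 ± 0.27). No control of cohort 7b reached the lowest of cohort 5 for CNR1, and without cohort 7b control 3 the value was -1.38.

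ATP2B1, a plasma membrane calcium pump on both lists, was at 374, 120 and 320 TPM against 180, 115 and 27.0 TPM (-1.54 ± 0.74), with 1 control of cohort 5 among those of cohort 7b. NPTN, a synaptic adhesion protein, was at 507, 289 and 520 TPM against 355, 284 and 142 TPM (-0.80 ± 0.39). These were -0.75 for ATP2B1 and -0.42 for NPTN without cohort 7b control 3. YWHAZ, a 14-3-3 adaptor, was at 1194, 1034 and 1224 TPM against 916, 925 and 496 TPM (-0.61 ± 0.27). Without cohort 7b control 3 the list medians were -0.39 and -0.50, with all 33 and all 11 members still below 0, and with the myelin marker score in the model they were -0.20 and -0.29. Summed over the glutamatergic list, the 6 animals were at 7735, 5523 and 7514 TPM and at 5441, 4783 and 3557 TPM, so cohort 5 control 2 lay next to cohort 7b control 1.

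Receptor lists fixed by function, apart from the lists of the study, were divided. Glutamate receptors were below 0 in 11 of 14 (median -0.41), with GRM5, a metabotropic receptor, at an unadjusted p under 0.05 (-0.97). The median was -0.20 without cohort 7b control 3, with 9 of 14 below 0. GRIN1, the obligatory NMDA receptor subunit, was at 621, 375 and 675 TPM against 545, 388 and 246 TPM (-0.53 ± 0.35, and -0.23 without that animal). Genes of GABA and glycine transmission were below 0 in 15 of 20 (median -0.36, and -0.21 without that animal), with GLRA2, GABRB2 (-0.63) and GLRB (-0.50) at an unadjusted p under 0.05. GABRA5, a GABA-A receptor subunit, was at 465.5, 389 and 486 TPM against 488, 318 and 45.0 TPM, and its value of -1.21 ± 0.81 was -0.18 without cohort 7b control 3. GABBR1, a subunit of the metabotropic GABA-B receptor, was closer between cohorts (-0.23 ± 0.18).

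**Figure D4:**
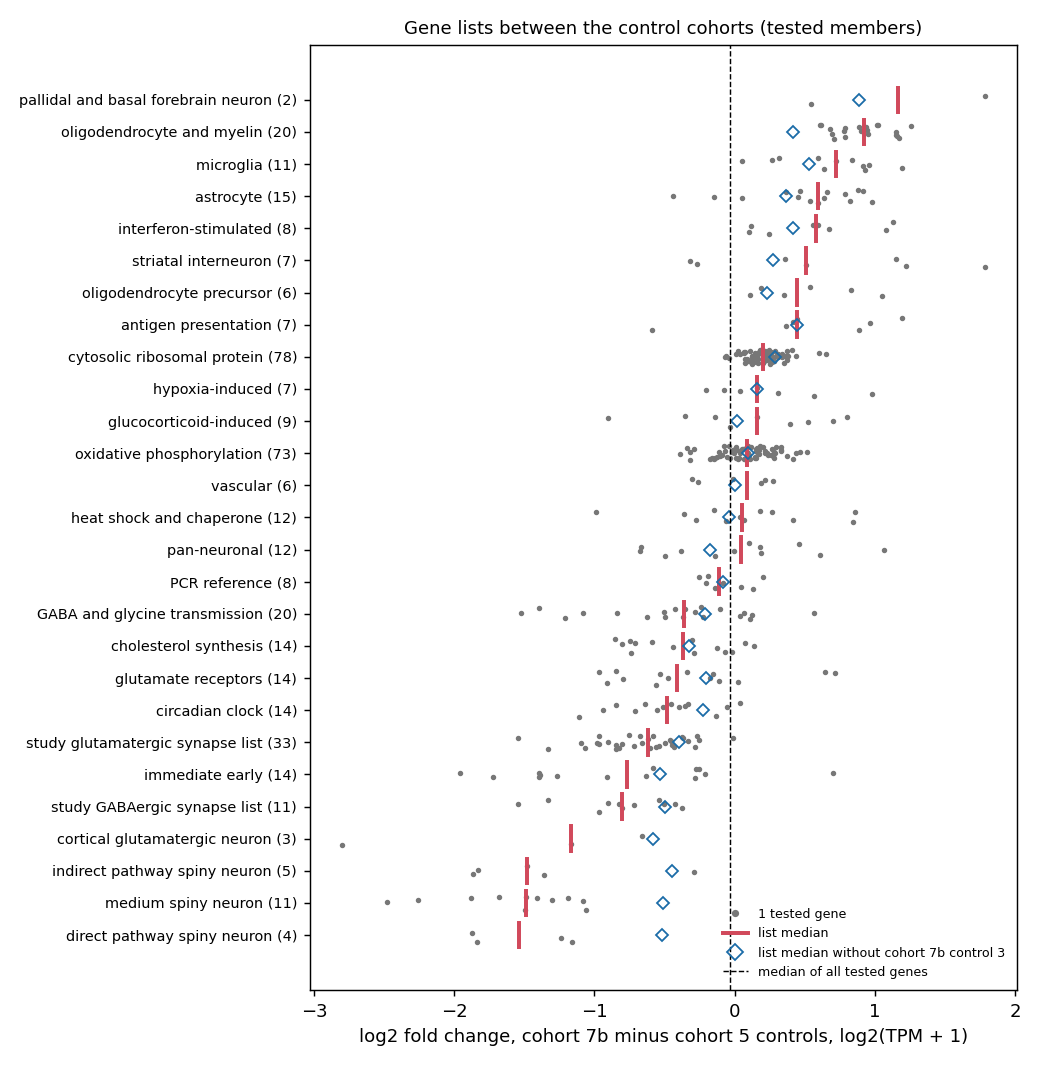
Log2 fold change, cohort 7b minus cohort 5 controls on log2(TPM + 1), of the tested members of each list (grey points), with the list median (red bar), the median without cohort 7b control 3 (blue diamond) and the median of all tested genes (dashed line, -0.03). The spiny neuron lists lie lowest, with medians of -1.48 to -1.54 that move to -0.45 to -0.52 without that animal, whereas the cholesterol median goes from -0.37 to -0.33.

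The size of the control difference can be set beside the contrasts with ethanol in the same cohorts. The median absolute log2 fold change over the 9197 genes was 0.22 between the controls of cohorts 7b and 5, 0.23 between those of 7a and 5 and 0.16 between those of 7b and 7a. Between drinkers and controls of 1 cohort it was 0.12 for HD* in cohort 5, 0.16 for HD* in cohort 7a and 0.16 for LD* in cohort 7b. Between LD* and HD* of cohort 7a, which hold no controls, it was 0.24, with 32 genes at an absolute log2 fold change of at least 1. Genes with an absolute log2 fold change of at least 1 numbered 347 between the controls of cohorts 7b and 5, 106 between those of 7a and 5 and 90 between those of 7b and 7a. They numbered 15 for HD* against controls in cohort 5, 46 for HD* in cohort 7a and 119 for LD* against controls in cohort 7b. These contrasts share control animals and have between 2 and 4 animals on a side, so their order is a description. Without cohort 7b control 3 the numbers became 65 between the cohorts and 33 for LD* against controls in cohort 7b, and the median absolute values 0.15 and 0.13. Without cohort 5 control 2 as well, the controls of the cohorts differed by a median of 0.22, with 221 genes at or past 1.

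**Figure D5:**
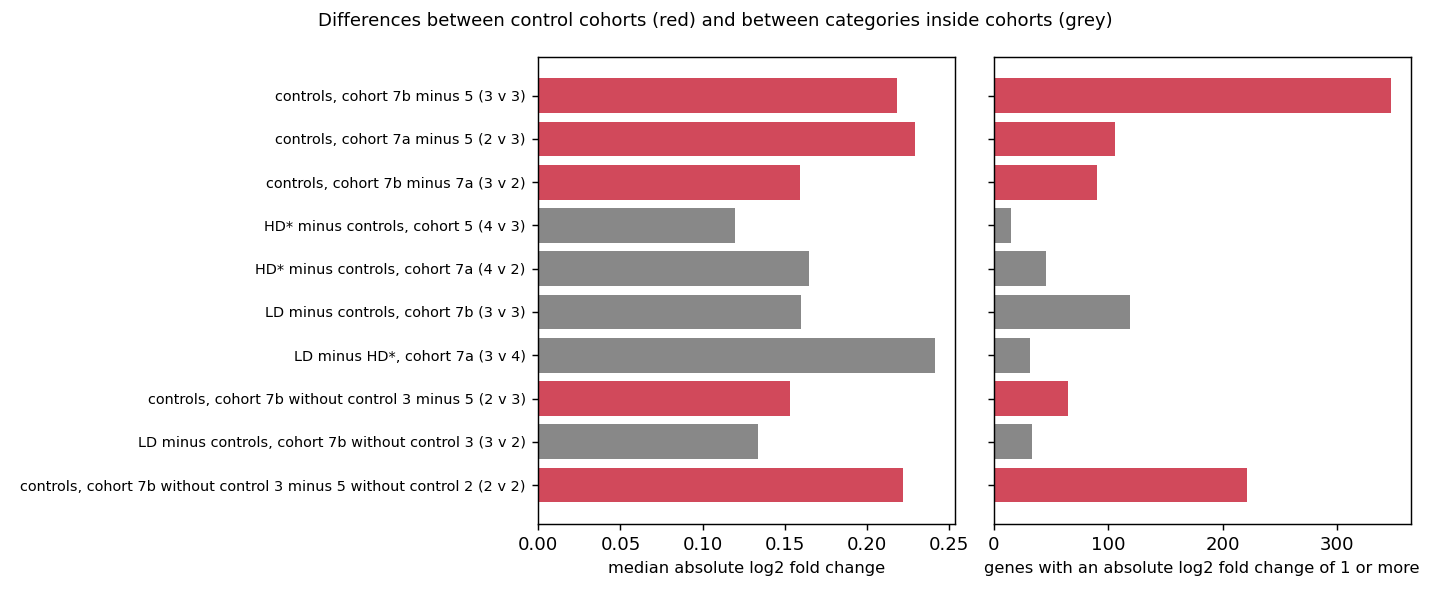
Median absolute log2 fold change over the 9197 tested genes (left) and number of genes at an absolute log2 fold change of at least 1 (right), for contrasts between control cohorts (red) and between categories inside a cohort (grey), with the number of animals on each side. The contrast of the controls of cohorts 7b and 5 has 347 genes at or past 1, and 65 when cohort 7b control 3 is left out, against 15 for HD* against controls in cohort 5.

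For single genes the same controls serve in both contrasts, so the values are given only side by side. TAC3 was at 43.6 to 172 TPM in the HD* animals of cohort 5 and at 27.9 to 61.7 TPM in the LD* animals of cohort 7b, a log2 fold change of -0.94 between those drinkers. Its log2 fold change was 0.85 for HD* against controls in cohort 5, -1.88 for LD* against controls in cohort 7b and 1.78 between the controls. PCDH17 had values of -0.54, 0.53 and -1.21 in the same order, THRB -0.88, 1.04 and -1.66, and CD74 0.21, -0.67 and 1.19. The controls of cohort 5 enter the first and the last of these contrasts with the same sign, and those of cohort 7b enter the second and the last with opposite signs.

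The drinkers of the same cohorts are other animals and allow the cohort order to be read again, although cohort 7b has only LD* and cohort 5 only HD*, so that category and cohort cannot be told apart there. Of the 509 genes lower in cohort 7b controls, 83.5% were also lower in cohort 7b LD* than in cohort 5 HD*, where 68.7% of all tested genes were. Of the 439 genes higher in cohort 7b controls, 53.5% were higher in those drinkers, beside 31.3% of all tested genes. Subtracting the LD* minus HD* difference seen inside cohort 7a gave 91.0% beside 75.5% for the lower genes, and 57.2% beside 24.5% for the higher ones. By list, the 20 myelin genes were all higher in the cohort 7b drinkers too (median 0.43), whereas 4 of 15 astrocyte and 4 of 11 microglial genes were, and the 11 spiny neuron markers were all lower (median -0.33). With the cohort 7a difference subtracted, 19 of 20 myelin, 6 of 15 astrocyte and 8 of 11 microglial genes were higher. Their medians were 0.56, -0.07 and 0.31, and the 11 spiny neuron markers were all lower (median -0.67). Without that subtraction, interneuron genes were higher in the cohort 7b drinkers in 0 of 7 (median -0.43) and interferon-induced genes in 2 of 8 (-0.15). Oligodendrocyte precursor genes were higher in 3 of 6 (0.04) and antigen presentation genes in 4 of 7 (0.03). With it, these 4 counts were 0, 4, 2 and 4.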

How the data were processed

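RNA was extracted by the authors from about 1 mm3 of frozen NAcc core per animal, and polyA-selected libraries were sequenced on an Illumina instrument. The paper describes stranded paired-end reads and the public record unstranded single-end reads. Per the labels and the paper, reads were aligned to the MacaM assembly with STAR 2.5.2b, unique alignments were counted on genes with HTSeq 0.6.1p1, and categories were compared with DESeq2. The values deposited by the authors are TPM, with columns that sum to 999998 to 1000000, although their name speaks of normalized counts. How lengths entered is not given in the sources used here, and no count test was possible.

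Categories and cohorts came from the labels. Values were transformed to log2(TPM + 1), genes averaging 10 TPM or more over 24 animals were kept, and cohort 7b controls were compared with cohort 5 controls in limma 3.58.1 (R 4.3.3, empirical Bayes with a trend) with Benjamini-Hochberg adjustment. The test was run on simulated data in which genes were independent and each gene had the same spread in all animals. Genes here move together and 1 animal stands apart, so that check does not cover this setting. Plots were drawn with matplotlib 3.10.9. Replicates are single animals, numbered in the order of the record, and are not paired. Genes were named by rule: the 12 smallest p and the 3 largest changes in each direction and the 2 most abundant tested members of each of 29 lists. The animals and lists were chosen with earlier results of these data known. Symbols that had become dates (27) were not named. List sums hold every listed member in the table, whereas list medians hold tested members. Alternatives were pseudocounts of 0.1 and 8, minima of 1 and 100 TPM or none, rescaling by trimmed means (TMM, 30% of M and 5% of A), no trend, larger fits, marker scores as covariates and each animal left out. A gene that the rule would name is not reported here. No sequences or coordinates are given.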

Additional observations from a re-analysis of the deposited data

Results flagged for a closer look

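Summed TPM of the 29 gene lists was searched for an animal far from the others among the 8 controls, by the gap to its nearest neighbour over the whole range, and 4 lists had one. Chance gives about 1 in 20. Cohort 7b control 3 stood apart for oligodendrocyte and myelin genes (13206 TPM, the others 3585 to 7774 TPM), oligodendrocyte precursor genes (1049 TPM, the others 404 to 660 TPM) and hypoxia-induced genes (1107 TPM, the others 691 to 754 TPM). The hypoxia list includes NDRG1, which myelinating cells also express and which was at 413 TPM in that animal and at 94.3 to 179 TPM in the other 5 controls of cohorts 5 and 7b. Cohort 7a control 2 stood apart for oxidative phosphorylation genes (48948 TPM, the others 33260 to 39203 TPM). It also had the highest ribosomal protein sum of the 8 controls, 153619 TPM. Cohort 7b control 3 was kept in the comparison, and cohort 7a control 2 did not enter it.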

How the results depend on the processing

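The number of genes at an adjusted p under 0.05 was 0 under all 18 alternatives, with 145 to 2698 genes at an unadjusted p under 0.05, and the smallest adjusted p was 0.0728 (limma, without cohort 5 control 2 and cohort 7b control 3 together, 2 animals a side). The 948 genes at an unadjusted p under 0.05 became 145 with a minimum of 100 TPM and 1432 with none, where fewer and more genes are tested, 557 with all 8 controls in the fit, 213 with the oligodendrocyte and myelin score as a covariate and, in alternatives chosen after seeing the data, 345 with the medium spiny neuron score and 2698 without both animals. Leaving out each animal gave 246 to 1833, namely 246 without cohort 5 control 1, 1833 without control 2 and 285 without control 3, and 1752, 863 and 553 without cohort 7b controls 1, 2 and 3. The share of them higher in cohort 7b, 46.3%, was 60.0% with the minimum of 100 TPM, 58.5% with 8 controls, 61.0% with the myelin score and 29.1% without cohort 7b control 2. TMM rescaling gave 951 and reversed none of the 79 named genes. The cause of these moves was not tested. No paired analysis was possible because replicate numbers only follow the order of the record.

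With the myelin score in the model, which shares its variation with cohort, 23 named genes changed sign: NGFR -0.40, GFAP -0.29, PPP1R1B 0.31, RASD2 0.12, PDYN 0.40, TAC1 0.55, PENK 0.53, ADORA2A 0.79, NPY 0.83, CAMK2A 0.81, ZIC1 -0.59, AQP1 0.67, GRIN1 0.025, GRIA1 0.15, GABRA5 0.76, COX4I1 0.19, HSP90AB1 -0.18, BNIP3 -0.21, DBP 0.18, TEF 0.046, SREBF2 0.017, ACTG1 0.00397 and ACTB -0.079. Medians of the microglial, ribosomal and cholesterol lists went from 0.72, 0.21 and -0.37 to 0.51, 0.37 and -0.34, and that of the astrocyte list to 0.25. The myelin list went to -0.05, a value held near 0 by the model, since the score is the mean of the same genes. On leaving out 1 animal 8 named genes changed sign, with ranges of -0.15 to 0.19 for ACTB, -0.074 to 0.20 for BNIP3, -1.05 to 0.093 for CAMK2A, -0.29 to 0.050 for COX4I1, -0.073 to 0.13 for HSP90AB1, -0.68 to 0.28 for NPY, -0.21 to 0.16 for SGK1 and -0.017 to 1.19 for ZIC1. The median absolute log2 fold change was 0.15 to 0.28 on leaving out 1 animal.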

Other observations

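The acetylcholine genes CHAT and SLC5A7 averaged below the minimum of 10 TPM over all animals, but of the 6 controls were listed highest in cohort 7b control 3. SLC18A3, another acetylcholine gene of the interneuron list, passed that minimum and was among the tested genes. CHAT, which makes acetylcholine, was at 8.31, 3.17 and 5.93 TPM in the cohort 5 controls and at 2.88, 9.59 and 19.8 TPM in the cohort 7b controls, and SLC5A7, the choline transporter, at 12.8, 5.13 and 10.2 TPM against 5.05, 11.9 and 24.7 TPM. PVALB, parvalbumin, was at 0.463, 2.50 and 0.508 TPM against 1.77, 4.94 and 17.6 TPM, and SLC17A6, the glutamate transporter of subcortical neurons, at 0.0317, 0.915 and 0.115 TPM against 0.0593, 1.01 and 7.31 TPM. The same animal was highest for TTR, the transthyretin of choroid plexus, at 26.9 TPM beside 0.495 to 5.37 TPM in the other 5. Apart from SLC18A3, these genes were chosen after their values were seen and were not tested.

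The list of pallidal and basal forebrain genes, of which 2 of 6 were tested, summed to 70.8, 65.0 and 64.1 TPM in cohort 5 and to 127, 266 and 255 TPM in cohort 7b. Most of each sum was TAC3, at 51.8, 39.4 and 47.5 TPM against 114, 229 and 159 TPM, which is also on the interneuron list. ZIC1, the other tested member, overlapped, at 6.13, 10.5 and 6.36 TPM against 4.10, 12.7 and 26.1 TPM. Its log2 fold change was -0.02 without cohort 7b control 3. Red blood cell genes were listed at sums of 1.21 to 4.16 TPM in the 6 controls.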
